A study of Mus musculus with 32 samples.

Results

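The TRIM genes are the tripartite motif family, here every gene whose symbol on the array begins with Trim and a digit. The array carried 67 such genes on 100 probes, among 24082 genes with a symbol, and 27 of the 67 had more than 1 probe. Each gene was read from its brightest probe. A total of 49 of the 67 passed the filter on dim probes, which asked for a signal well above background on at least 16 of 32 arrays, and these 49 were among the 16035 genes tested.

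TRIM proteins carry a RING domain, B-boxes and a coiled coil in a row, and most act as E3 ubiquitin ligases. Their C-terminal domain differs between members and chooses the target, which can be a viral capsid, an RNA sensor or adaptor, a transcription factor or a cytoskeletal protein. In macrophages several members are known as interferon-stimulated genes, and others tune the signals from Toll-like receptors, RIG-I-like receptors, cGAS-STING and inflammasomes.

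Macrophages grown from mouse bone marrow with M-CSF (BMDMs) came from WT mice (C57BL/6 by the labels, the J substrain by the methods) or from Ifnar1-/- mice, which lack a chain of the type I interferon receptor; the background strain of the latter, and the age and number of the animals, are not given in the sources used here. They were left untreated or were stimulated for 6 h with LPS (the TLR4 ligand, 100 ng per mL by the labels), IFNβ (1000 U per mL by the labels), zVAD (a caspase inhibitor), or LPS or IFNβ together with zVAD (LPS+zVAD and IFNβ+zVAD), each of the last also with Nec-1, an inhibitor of the kinase RipK1. The paper uses both LPS+zVAD and IFNβ+zVAD as stimuli of necroptosis, a lytic cell death. The 2 genotypes and 8 treatments form 16 groups of 2 arrays, and the methods give other doses than the labels.

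Levels below are log2 intensities after quantile normalization, and differences are log2 differences of group means ± SE from limma, with p-values adjusted by the Benjamini-Hochberg method over all genes of a comparison. A gene is called changed at an adjusted p under 0.05. Where a probe was not well above background on both arrays of a group, a fold is given as "at least": the brighter group's mean against, for each dim array, the higher of the lowest signal among its probes well above background and the probe's own signal. That lowest signal differs between arrays, so bounds of 1 probe against different groups rest on different limits, and where the probe's own signal is the higher the bound equals the measured fold. Each of the 4 slides held 1 replicate of 1 genotype, so where the genotypes differ in level under 1 treatment, genotype and slide cannot be told apart. Each treatment also had the same position on every slide, so treatment and position cannot be told apart. All 7 macrophage markers were well above background on all 32 arrays, and probes of T-cell, B-cell, neutrophil and stromal markers were also detected, with Cd3g above background on 3 arrays. The summed macrophage signal of a group ran from 19.5 to 19.8 on the log2 scale, against 13.5 to 15.4 for the neutrophil list and 12.2 to 13.3 for the T-cell list. The stromal list ran from 9.15 to 10.9 in the WT groups and from 11.4 to 12.9 in the Ifnar1-/- groups, and within each genotype it was highest with LPS, at 10.9 and 12.9 against 9.85 and 12.05 untreated. The part of these markers in the results was not tested. In such bulk RNA, fewer cells of a type and less RNA per cell cannot be told apart. The Ifnar1 probes were lower in Ifnar1-/- than in WT arrays, with medians of 11.79, 6.81 and 8.14 against 13.21, 8.51 and 10.62. The ranges of the brightest probe overlapped, those of the other 2 did not, and all 3 stayed above background in most Ifnar1-/- arrays. Where these probes lie relative to the deleted part is not given in the sources used here. The 2 arrays of Ifnar1-/- cells with LPS+zVAD+Nec-1 stood apart, with a median absolute difference between replicates of 0.512, where the WT LPS pair, the next largest, had 0.384.

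Of the 49 tested TRIM genes, 15 rose with IFNβ in WT BMDMs, where 13.7% of all genes tested did. These 15 are called interferon-induced here. In all, 23 changed when zVAD was added, in any of 6 comparisons with and without it, against a background of 35.9% of all genes tested. A further 2 were stable, meaning that they were called in none of 14 treatment comparisons and that their group means spanned under 1 log2 unit in each genotype, a rule that 16.1% of all genes tested met. The classes overlapped: 7 genes were both interferon-induced and zVAD-changed (Trim12a, Trim14, Trim21, Trim26, Trim30a, Trim30c and Trim34a), 8 were interferon-induced only and 16 zVAD-changed only. The other 16 fell in no class. The share of all genes that met both the interferon-induced and the zVAD-changed rule was not computed.

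**Figure D1:**
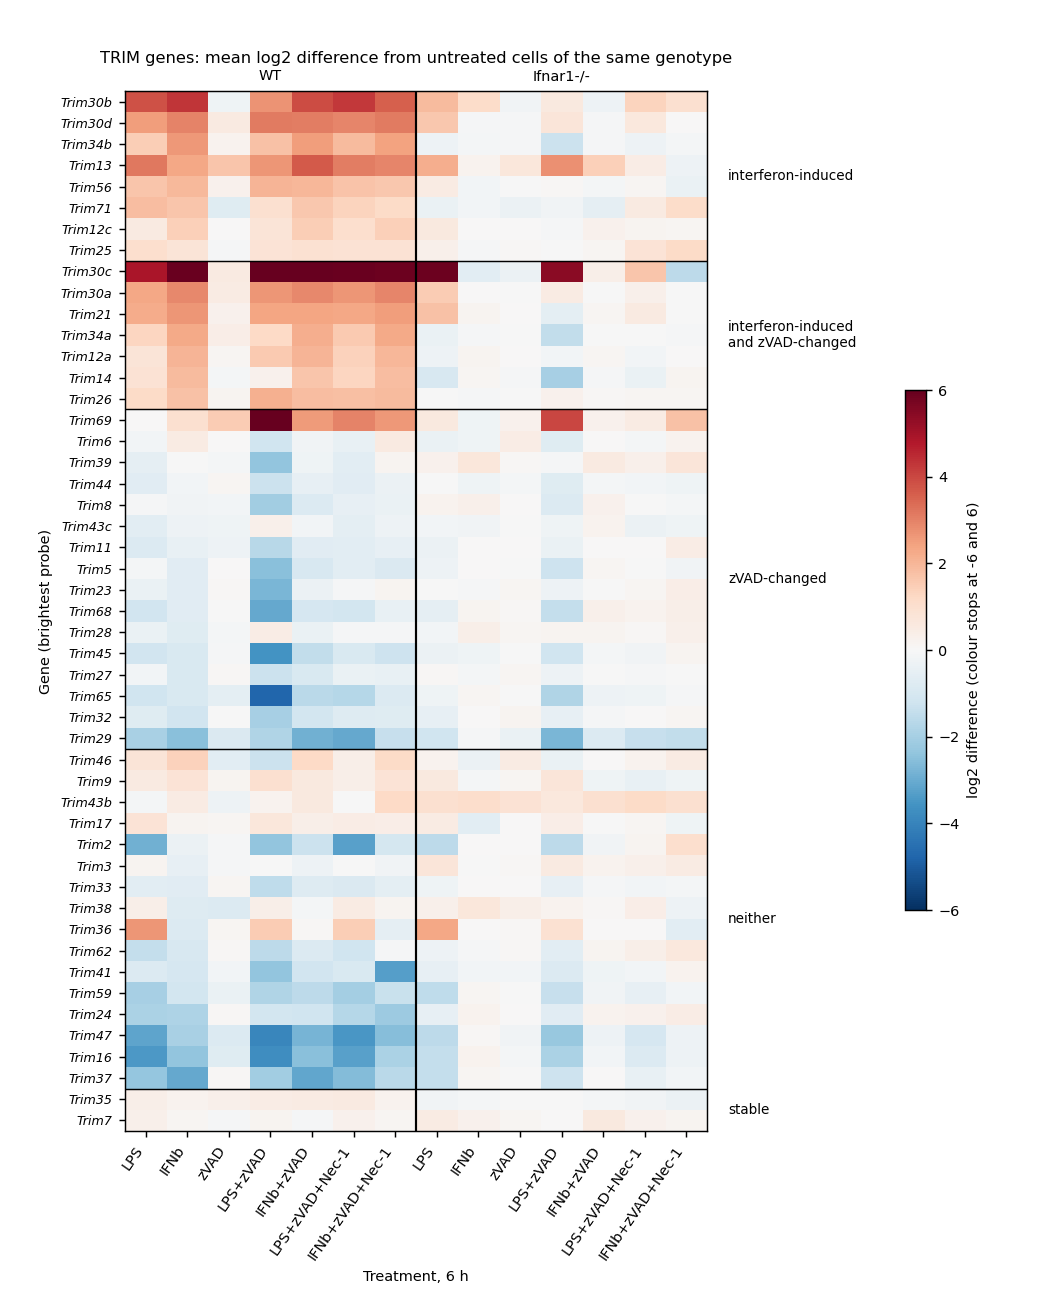
Mean log2 difference from untreated cells of the same genotype for the 49 tested TRIM genes (rows, grouped by class) under 7 treatments for 6 h in WT and Ifnar1-/- BMDMs (columns); the colour scale stops at -6 and 6. The interferon-induced genes are higher in the WT columns with LPS or IFNβ, and with IFNβ in Ifnar1-/- cells the 39 members above background on all 4 arrays run from -0.25 to 0.69.

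Short stretches of promoter sequence are shown first for the interferon-induced genes, the members sorted by their rise with IFNβ in WT. Promoters were taken from RefSeq (build GRCm38.p6), from 250 bases before to 50 bases after each gene start, and searched for GAAANNGAAA, the core of the interferon-stimulated response element bound by ISGF3 and IRF factors, and for TTTCNNTTTC, the same motif read on the other strand. The motif was in 7 of the 14 interferon-induced genes that had a promoter in the table (50%), in 1079 of all 27025 genes with a promoter (3.99%), and in 1131 of 32851 single promoters (3.44%). Among the zVAD-changed-only genes 1 of 11 held it, Trim5. Among members in neither class 1 of 10 held it, among the stable members 0 of 1, and among those that failed the filter 0 of 15. Of the 7 interferon-induced genes with the motif, Trim12a, Trim12c, Trim30a, Trim30d and Trim34a are related neighbours in 1 cluster on chromosome 7. Trim5 lies in the same cluster. The stretches shown for Trim30d and for the first listed start of Trim30a are identical. Such matches are not independent, so the share of 50% counts related sequence more than once. A match is a description of these letters and not evidence of a bound factor. Each line gives the strand of the gene 5′ to 3′ with the matching letters in capitals; 2 overlapping matches run together in Trim21 and in Trim26.
Trim12a, chr7:104315466-104315495, minus strand, match 10 bases after the start: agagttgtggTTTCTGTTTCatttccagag
Trim12c, chr7:104353359-104353388, minus strand, match 29 bases before the start: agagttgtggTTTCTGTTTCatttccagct
Trim34a, chr7:104244457-104244486, plus strand, match 10 bases after the start: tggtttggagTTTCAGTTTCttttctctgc
Trim30a, chr7:104465210-104465239, minus strand, match 36 bases before the start: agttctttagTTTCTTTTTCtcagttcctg
Trim30a at a second start, chr7:104446104-104446133, minus strand, match 2 bases after the start: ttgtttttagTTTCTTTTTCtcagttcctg
Trim30d, chr7:104507871-104507900, minus strand, match 41 bases before the start: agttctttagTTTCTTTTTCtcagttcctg
Trim21, chr7:102565447-102565476, minus strand, first match 13 bases after the start: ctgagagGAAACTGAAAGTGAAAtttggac
Trim26, chr17:36836979-36837008, plus strand, first match 160 bases before the start: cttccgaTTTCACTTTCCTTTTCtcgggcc

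Trim30c, which had the largest change with IFNβ, held no match in its window. The 100 bases before its start, chr7:104400779-104400878 on the minus strand, are shown for comparison with its neighbours.
Trim30c: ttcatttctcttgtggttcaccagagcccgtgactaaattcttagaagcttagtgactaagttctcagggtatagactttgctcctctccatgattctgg

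The cluster on chromosome 7 holds the mouse relatives of the capsid-binding restriction factor Trim5. Its probes ran from Trim6 (chr7:111382909-111382968 in build mm9) to Trim30d (chr7:111620805-111620864), with Trim30e-ps1, which failed the filter, beyond them (chr7:111681475-111681534). With IFNβ in WT BMDMs, 15 of the 49 tested TRIM genes were higher than in untreated cells, or 30.6%, where 13.7% of all genes tested were. A further 12 were lower, or 24.5%, where 21.6% of all genes tested were. The median difference was -0.18 over the TRIM genes and -0.17 over all genes. In the cluster 8 of 10 tested genes rose, and the median difference of the 10 was 2.43. The interferon-induced class is defined by this comparison, so the rises given for it describe the class. The 2 that were not called are Trim5 and Trim6.

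Trim30c had levels of 7.41 and 8.13 in the 2 untreated WT arrays and of 13.79 and 13.63 with IFNβ. The groups did not overlap, and the difference of 5.94 ± 0.59 (61.3-fold, adjusted p = 3.59e-07) was the largest among the TRIM genes in this comparison. Trim30b went from 5.07 and 6.02 to 9.70 and 9.94, a difference of 4.28 ± 0.73 (adjusted p = 0.00015). Trim30a, a known brake on NF-κB signalling from Toll-like receptors, was at 12.24 and 12.45 untreated and at 15.17 and 15.25 with IFNβ. Its replicates lay closer together than those of Trim30c, and its difference was 2.86 ± 0.24 (adjusted p = 4.95e-08). Trim30d rose by 2.98 ± 0.30 (adjusted p = 5.11e-07). The 4 Trim30 paralogs are alike in sequence, and how far their probes read each other's transcripts was not tested.

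The Trim34 and Trim12 pairs of the same cluster rose less. Trim34a, at 11.91 and 12.08 untreated, stood at 14.10 and 14.44 with IFNβ (2.27 ± 0.24), and Trim34b rose by 2.59 ± 0.41. Trim12a rose by 2.02 ± 0.28 and Trim12c by 1.43 ± 0.25. The largest adjusted p of these 4 was 0.000246. The other 2 probes of Trim12c gave 1.66 and 2.63.

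The other interferon-induced members are mostly known regulators of antiviral or inflammatory signalling. Of the TRIM genes listed here as regulators of such signalling, interferon-induced or not, 15 were tested. With IFNβ in WT 6 of these rose and 4 fell, where 13.7% and 21.6% of all genes tested did. Trim21, the cytosolic antibody receptor, was at 12.32 and 12.41 untreated and at 15.13 and 14.94 with IFNβ, a difference of 2.67 ± 0.29 (adjusted p = 1.26e-06). Trim14, which lacks a RING domain and works as an adaptor of MAVS, was at 12.61 and 12.67 and then at 14.47 and 14.58 (1.89 ± 0.26, adjusted p = 1.48e-05). For both genes the untreated and treated arrays were well apart. Trim26, a ligase reported to act on nuclear IRF3, rose by 1.77 ± 0.20. Trim56, a ligase of the STING and TLR3 pathways, rose by 1.95 ± 0.18 on its brightest probe, while its other probe gave -0.06 ± 0.30 with an adjusted p of 0.908. Trim13, a ligase of the endoplasmic reticulum, rose by 2.34 ± 0.55 (adjusted p = 0.00264), with 11.18 and 13.02 in its 2 IFNβ arrays; without WT IFNβ replicate 2 its difference was 1.42 and not called. Trim71, an RNA-binding NHL-repeat protein of stem cells, rose by 1.65 ± 0.48 (adjusted p = 0.0119), and lost the call without untreated replicate 1 (1.02) or without IFNβ replicate 1 (1.12).

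Trim25, the ligase of the RNA sensor RIG-I, had the smallest called rise, 0.78 ± 0.24 (adjusted p = 0.0187), and lost the call without untreated replicate 1 (0.60) or IFNβ replicate 1 (0.65). Its brightest probe stood between 16.82 and 18.27 in every WT array and holds a repeat of the same pair of bases over 30 of its 60 bases, where no other probe of a member had such a repeat over more than 8. The other Trim25 probe gave 0.63 ± 0.36 (adjusted p = 0.2) with IFNβ and -1.46 ± 0.36 (adjusted p = 0.00638) with LPS in Ifnar1-/- cells, where the brightest gave 0.31 ± 0.25. The part of the repeat in these values was not tested.

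**Figure D2:**
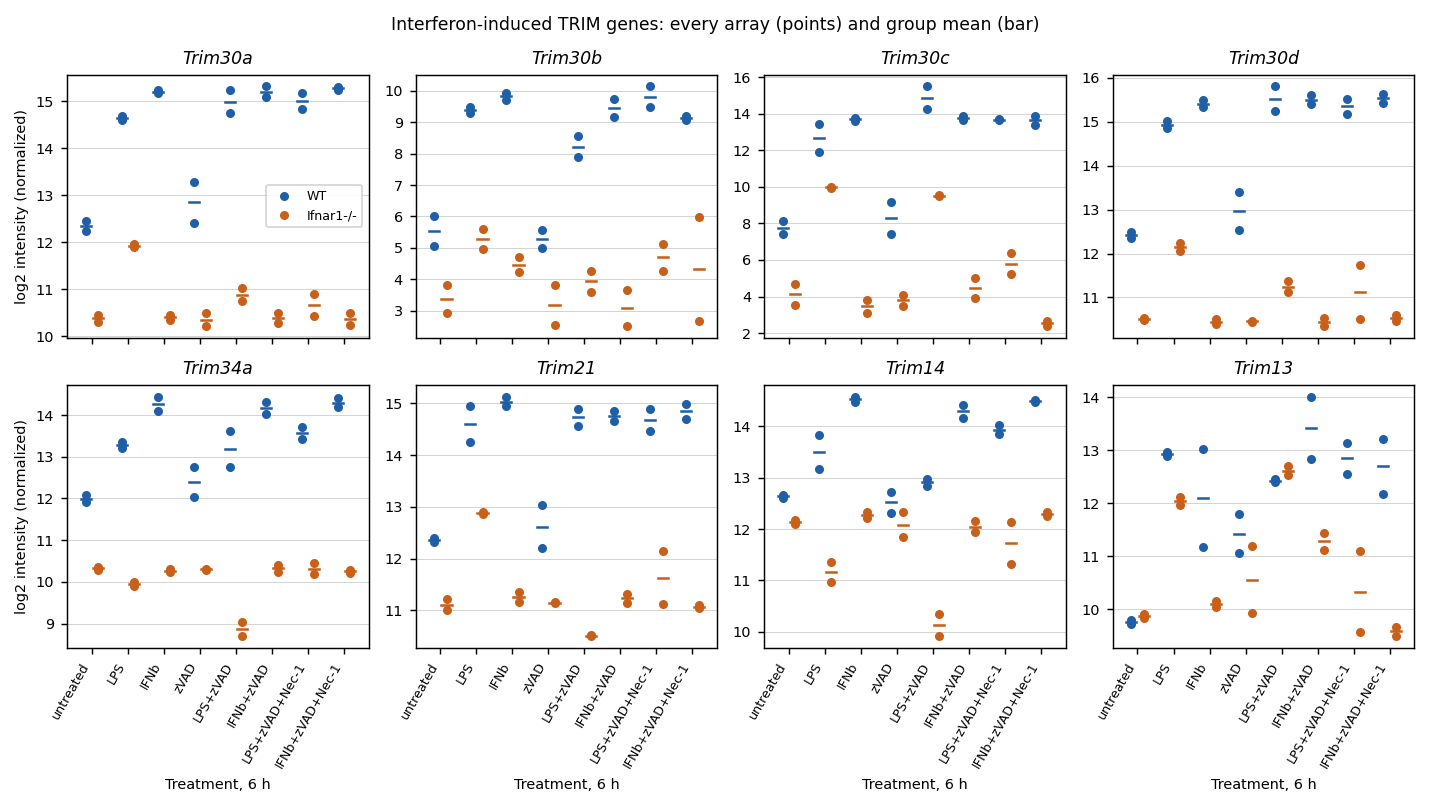
Normalized log2 intensity (vertical axis) of 8 interferon-induced TRIM genes under 8 treatments for 6 h (horizontal axis); points are single arrays, 2 per group, bars are group means, and colours are the genotypes. Trim30c stood at 13.79 and 13.63 with IFNβ in WT arrays and at 3.12 and 3.82 with IFNβ in Ifnar1-/- arrays.

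Of the 12 members that fell with IFNβ in WT BMDMs, 4 (Trim11, Trim27, Trim29 and Trim62) are among the 15 tested signalling regulators. Over all genes tested, 21.6% fell. Trim37, a ligase of peroxisomes and centrosomes, went from 7.96 and 8.20 to 5.05 and 4.98, a fall of -3.06 ± 0.50 (adjusted p = 9.58e-05), with 1 of the 2 IFNβ arrays above background. Trim29, known to restrain interferon production in macrophages, went from 5.24 and 6.17 to a signal not well above background on both arrays, at least 2.78-fold lower (adjusted p = 0.000383). Trim16, a stress-response and autophagy factor, went from 9.36 and 9.40 to 6.54 and 7.45 (-2.39 ± 0.43). Trim47 fell by 1.96 and Trim24, a nuclear receptor cofactor of the TIF1 family, fell by 1.87. The TIF1 corepressor Trim28 (-0.72 ± 0.25) and Trim27, a negative regulator of NF-κB signalling (-0.92 ± 0.15), were also lower. The brightest probe of Trim28 and a dim probe of the same gene went opposite ways: the dim probe gave 2.82 ± 0.58 with an adjusted p of 0.000865. The remaining falls, of Trim32, Trim59, Trim62, Trim3 and Trim11, lay between -1.17 and -0.47. The calls of Trim3, Trim11, Trim24, Trim28, Trim59 and Trim62 were each lost when 1 of the 4 arrays was left out.

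In Ifnar1-/- BMDMs, limma called 0 of the 49 TRIM genes with IFNβ, and 0 of all genes tested. At an unadjusted p under 0.05 there was 1 TRIM gene. Over the 39 members above background on all 4 arrays, differences ran from -0.25 for Trim44 to 0.69 for Trim39. Trim30a was at 10.30 and 10.46 untreated and at 10.34 and 10.46 with IFNβ, and Trim21 at 11.01 and 11.21 untreated and at 11.36 and 11.17 with IFNβ; for both, the groups overlapped. The difference between the genotypes' changes was tested itself, and 19 of the 49 TRIM genes were called, where 18.8% of all genes tested were. Of these 19, 12 had the lower change in Ifnar1-/- cells and all 12 were interferon-induced genes; the remaining 7 (Trim16, Trim27, Trim28, Trim29, Trim32, Trim37 and Trim47) had fallen in WT. In the cluster, all 8 that rose in WT were called. This test contains the WT change that defines the interferon-induced class. The class and direction of the called genes therefore largely follow from the sorting rule and are not separate support for it. The difference was -6.58 ± 0.83 for Trim30c (adjusted p = 2.24e-05), which was not well above background in the Ifnar1-/- untreated and IFNβ arrays, and -2.84 ± 0.34 for Trim30a (adjusted p = 1.2e-05). Trim30b, also not well above background there, gave -3.19 ± 1.03 (adjusted p = 0.0363), a call kept in 8 of 16 alternatives. The calls of Trim27, Trim28, Trim29, Trim30b and Trim32 were each lost when some single array was left out. Trim13, Trim25 and Trim71 were not called in this test.

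Untreated levels of cluster genes were lower in the Ifnar1-/- arrays than in the WT arrays: Trim30d stood at 10.49 and 10.53 against 12.36 and 12.49, Trim12a at 11.11 and 11.52 against 12.95 and 13.14, and Trim34a at 10.29 and 10.36 against 11.91 and 12.08. The groups did not overlap for any of the 3, and genotype and slide cannot be told apart here. Trim26 was at 12.27 and 12.20 against 12.59 and 12.75, a smaller gap.

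LPS, which makes macrophages secrete type I interferon, raised 15 of the 49 TRIM genes in WT BMDMs, where 16.3% of all genes tested rose, and lowered 13, where 24.9% fell. The LPS and IFNβ comparisons share the untreated arrays, so the values stand side by side without a test between them. Trim30c was at 13.41 and 11.92 with LPS, a difference of 4.90 ± 0.59 against 5.94 with IFNβ, and the LPS difference was 4.15 without LPS replicate 1 and 5.65 without LPS replicate 2. Trim30a gave 2.30 against 2.86, Trim21 2.24 against 2.67, and Trim34a 1.28 against 2.27. Trim13 went the other way in size, 3.17 ± 0.55 with LPS against 2.34 with IFNβ, with 12.89 and 12.96 in the LPS arrays. Of the 15 interferon-induced genes, only Trim12c (0.56, adjusted p = 0.0897) was not called with LPS on its brightest probe; its other 2 probes gave 1.04 and 1.94 and were called. Trim12a (0.78 ± 0.28, adjusted p = 0.0346) lost its call when any 1 of the 4 arrays was left out.

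Trim36, a microtubule-binding member with a COS box, was the only one of the 15 LPS-raised genes outside the interferon-induced class. It was at 8.90 and 8.84 untreated, at 11.50 and 11.49 with LPS and at 7.13 and 8.97 with IFNβ. The LPS arrays were apart from the rest, and the difference was 2.63 ± 0.58 (adjusted p = 0.00136). In Ifnar1-/- BMDMs it went from 9.24 and 9.45 to 11.62 and 11.71 (2.32 ± 0.58, adjusted p = 0.00671), a call lost without Ifnar1-/- untreated replicate 1 (adjusted p = 0.0503).

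The falls with LPS in WT were led by Trim16 (-3.44 ± 0.43) and Trim47 (-3.17 ± 0.34). Trim2, an NHL-repeat ligase best known in neurons, went from 7.58 and 7.91 to 4.64 and 5.06 with LPS (-2.90 ± 0.53) and was at 7.08 and 7.68 with IFNβ. Trim59 fell by 2.01 and Trim37 by 2.33. Trim29 was at least 3.85-fold lower, with both LPS arrays not well above background. The other 7 that fell (Trim24, Trim62, Trim68, Trim11, Trim32, Trim44 and Trim43c) lay between -1.90 and -0.62. Among the falls, the calls of Trim24, Trim29, Trim32, Trim43c, Trim44 and Trim68 were each lost when 1 of the 4 arrays was left out. Among the rises with LPS in WT, those of Trim14, Trim34b and Trim71 were lost in the same way.

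In Ifnar1-/- BMDMs, LPS raised 8 TRIM genes, where 10.9% of all genes tested rose, and lowered 6, where 13.9% fell. Of the 15 interferon-induced genes, 6 rose without the receptor: Trim30c, Trim13, Trim21, Trim30d, Trim30a and Trim56. Trim30c went from a signal not well above background to 9.94 and 10.02, at least 53.1-fold higher (adjusted p = 8.7e-06). Trim21 went to 12.90 and 12.86 (1.77 ± 0.29, adjusted p = 0.000326), Trim30a to 11.89 and 11.96 (1.55 ± 0.24, adjusted p = 0.000189), and Trim13 from 9.83 and 9.92 to 11.97 and 12.12 (2.17 ± 0.55). In each of these genes both LPS arrays lay above both untreated ones. Trim56 gave 0.51 ± 0.18 (adjusted p = 0.0448), a call lost when any 1 of the 4 arrays was left out. Trim3, an NHL-repeat member, rose by 0.72 ± 0.18, a call lost without untreated replicate 1.

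Other interferon-induced genes were not called higher with LPS in Ifnar1-/- cells. Trim34a gave -0.38, Trim12a -0.33, Trim34b -0.29, Trim26 -0.05, Trim25 0.31 and Trim71 -0.39. Trim30b went from a signal not well above background to 5.59 and 4.97, with an adjusted p of 0.0637. Trim12c gave 0.60 (adjusted p = 0.098), beside 0.56 in WT, and was called with the mean of its probes (adjusted p = 0.0294). Trim14 went from 12.10 and 12.17 to 10.97 and 11.36, a fall of -0.97 ± 0.26 (adjusted p = 0.00907), opposite to its rise of 0.87 ± 0.26 in WT, while its other probe gave 0.22 ± 0.25 (adjusted p = 0.619). The fall lost its call without untreated replicate 2 (-0.93) or LPS replicate 1 (-0.77). The falls of Trim16, Trim47, Trim2, Trim59 and Trim37 lay between -1.59 and -1.42, and the calls of Trim2, Trim16 and Trim37 were lost when any 1 of the 4 arrays was left out.

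The difference between the genotypes' LPS changes was called for 4 TRIM genes, all with the lower change in Ifnar1-/- cells, where 6.64% of all genes tested were called. They were Trim14 (-1.83 ± 0.36, adjusted p = 0.00415), Trim34a (-1.66 ± 0.35, adjusted p = 0.00609), Trim26 (-1.19 ± 0.28, adjusted p = 0.014) and Trim56 (-1.17 ± 0.25, adjusted p = 0.00772). With the slide as a block 11 were called, and 7 without the 2 arrays that stood apart. With the mean of its probes, Trim56 gave -0.31 (adjusted p = 0.713). The call of Trim26 was lost when 1 of 4 single arrays was left out. Trim30c, Trim21, Trim30a and Trim13 were not called in this test.

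**Figure D3:**
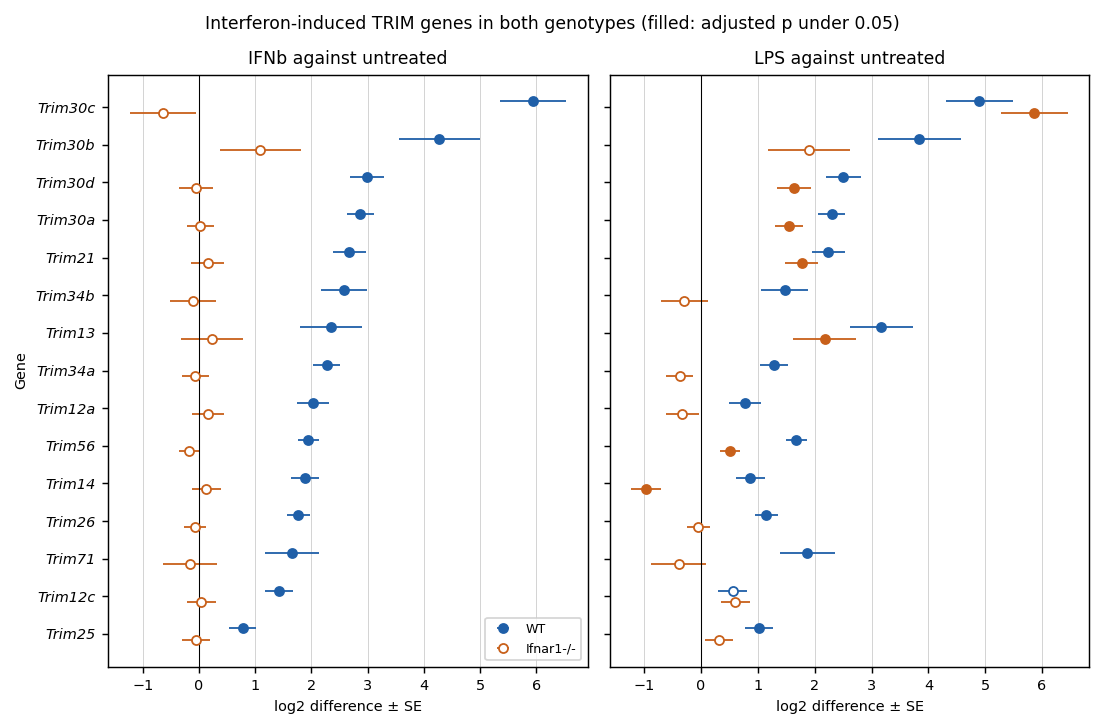
Log2 difference ± SE of each interferon-induced TRIM gene (vertical axis) with IFNβ and with LPS against untreated cells (panels), for WT and Ifnar1-/- BMDMs (colours); filled points have an adjusted p under 0.05. With IFNβ 0 Ifnar1-/- points are filled, and with LPS 6 genes rose in Ifnar1-/- cells and Trim14 fell.

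zVAD by itself, and zVAD added to IFNβ, called 0 TRIM genes in either genotype. With limma in WT, 3 of the 49 members had an unadjusted p under 0.05 in each of these comparisons, and in Ifnar1-/- 0 with zVAD and 1 with IFNβ+zVAD; over all genes the adjusted calls in these 4 comparisons were 0 or 1. The largest member values in them were 1.67 for Trim13 and 1.59 for Trim69 in WT, in the same order, and those of Trim43b and Trim30b in Ifnar1-/- cells, neither above background on all arrays compared. Trim30a was at 15.09 and 15.31 with IFNβ+zVAD in WT. All 23 zVAD-changed genes were called in the comparisons of LPS+zVAD with LPS. In WT BMDMs, LPS+zVAD against LPS called 6 TRIM genes higher, where 12.9% of all genes tested were, and 12 lower, where 21.8% were, and the median difference was -0.16 over the TRIM genes and -0.04 over all genes.

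Trim69 had the largest change of any TRIM gene in any comparison. It encodes a centrosomal ligase that is best known from testis and that also restricts vesicular stomatitis virus, and its probe lay at chr2:122004642-122004701 in mm9. In WT BMDMs it was at 4.01 and 4.96 untreated, at 4.07 and 4.97 with LPS and at 11.72 and 12.06 with LPS+zVAD. These 2 arrays lay above the other 14 WT arrays, and the difference from LPS was 7.36 ± 0.95 (165-fold, adjusted p = 1.01e-05). With zVAD it was at 5.19 and 6.85, with IFNβ+zVAD at 5.65 and 8.40, and with LPS+zVAD+Nec-1 at 6.28 and 8.67. In each of these groups replicate 2 was higher, with gaps of over 1 log2 unit.
In Ifnar1-/- BMDMs Trim69 was not well above background with LPS and stood at 7.82 and 7.67 with LPS+zVAD, at least 9.49-fold higher (adjusted p = 0.031); this call was lost when any 1 of the 4 arrays was left out. The difference between the genotypes' changes was not called. The 100 bases before its RefSeq starts, both on the plus strand, are shown because no other member moved as far; neither promoter window held GAAANNGAAA or TTTCNNTTTC.
Trim69, first start, chr2:122160608-122160707: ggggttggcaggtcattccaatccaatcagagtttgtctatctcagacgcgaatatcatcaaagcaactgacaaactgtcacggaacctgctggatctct
Trim69, second start, chr2:122161456-122161555: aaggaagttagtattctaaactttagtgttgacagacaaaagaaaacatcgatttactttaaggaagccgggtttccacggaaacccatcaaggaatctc

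The other 5 that rose in WT with LPS+zVAD were Trim30c (2.20 ± 0.59, adjusted p = 0.00657), Trim26 (0.97 ± 0.20), Trim43c, a member known from early embryos (0.94 ± 0.22), Trim28 (0.85 ± 0.25) and Trim12a (0.77 ± 0.28). Trim30c went from 13.41 and 11.92 with LPS to 14.24 and 15.49, and lost its call without LPS replicate 2 (1.45) or without LPS+zVAD replicate 2 (1.57). The dim probe of Trim28 gave -2.08 ± 0.58, the opposite direction, and the mean of its probes -0.62; its call was lost without LPS replicate 2 or LPS+zVAD replicate 2. Trim12a lost its call without LPS replicate 1, LPS replicate 2 or LPS+zVAD replicate 2, with the 75th percentile scaling, with normexp, with no filter on dim probes, with only the compared groups and with the authors' normalized values.

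The falls in WT with LPS+zVAD included several regulators of innate signalling. Trim65, the ligase of the RNA sensor MDA5, was at 8.45 and 8.49 untreated, at 6.05 and 8.46 with LPS and not well above background on both LPS+zVAD arrays, at least 11.4-fold lower than with LPS (adjusted p = 3.9e-05). Without LPS replicate 2 its difference was -2.34 in place of -3.55, and still called. Its other probe gave -1.69 ± 0.50 (adjusted p = 0.0117). Trim45 was at 5.56 and 7.11 with LPS and not well above background with LPS+zVAD, at least 5.44-fold lower (adjusted p = 0.00123), with a difference of -1.67 without LPS replicate 2 in place of -2.44. Trim23, which carries an ARF domain and modifies NEMO, fell by 2.37 on the log2 scale, from 5.52 and 6.31 to 4.25 and 2.85, with 1 of the 2 arrays above background, and by 1.67 without LPS+zVAD replicate 2.
Trim8, a positive regulator of NF-κB signalling, went from 12.26 and 12.86 to 11.12 and 9.96 (-2.02 ± 0.26, adjusted p = 1.03e-05). Trim68 went from 7.87 and 8.52 to 6.42 and 6.12 (-1.93 ± 0.27), and Trim27 from 13.10 and 13.35 to 12.32 and 11.89 (-1.12 ± 0.15). In all 3 both LPS+zVAD arrays lay below both LPS arrays. Trim5, of the chromosome 7 cluster, fell by 2.35 and Trim39 by 1.80. Trim32, an NHL-repeat ligase that modifies STING, gave -1.29 ± 0.24, and Trim6, known for unanchored ubiquitin chains that activate IKKε, -1.04 ± 0.39. Trim11 and Trim44 gave -0.85 and -0.63. The call of Trim6 was lost when LPS replicate 1, LPS replicate 2 or LPS+zVAD replicate 1 was left out, with -0.37 in the last case. Trim39 lost it without LPS replicate 2 (-1.28), and Trim44 without LPS replicate 2 (-0.48) or LPS+zVAD replicate 2 (-0.30). A fit of only the 2 compared groups called 1 higher (Trim69) and 2 lower.

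Adding Nec-1 to LPS+zVAD in WT called 12 TRIM genes higher, where 18.7% of all genes tested were, and 2 lower, where 9.78% were. This comparison shares the LPS+zVAD arrays with the one before. Trim69 was lower by -4.41 ± 0.95 (adjusted p = 0.00163) and Trim43c by -0.89 ± 0.22. Trim65 was at 6.03 and 7.45, at least 8.00-fold above LPS+zVAD, and Trim45 at 6.34 and 6.86, at least 6.54-fold above it. Trim23 rose by 2.69, Trim68 by 1.97, Trim5 by 1.87, Trim39 by 1.74, Trim8 by 1.62 and Trim32 by 1.24. Trim14 rose by 1.03 ± 0.26, to 14.02 and 13.85 from 12.84 and 12.98. The remaining 3 (Trim11, Trim27 and Trim44) rose by 0.61 to 1.03. The calls of Trim5, Trim39, Trim43c and Trim44 were each lost when some single array was left out. Without Nec-1 replicate 1 Trim69 gave -3.22, without Nec-1 replicate 2 Trim65 gave 2.32, and without LPS+zVAD replicate 2 Trim23 gave 1.99, all still called. In a fit of only the compared groups, all 14 calls were lost, with adjusted p-values of 0.0506 to 0.265. Nec-1 added to IFNβ+zVAD called 0 TRIM genes in WT with limma, and 6 at an unadjusted p under 0.05; the largest value, -2.16 for Trim41, came from 1 low array (9.69 against 14.95).

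**Figure D4:**
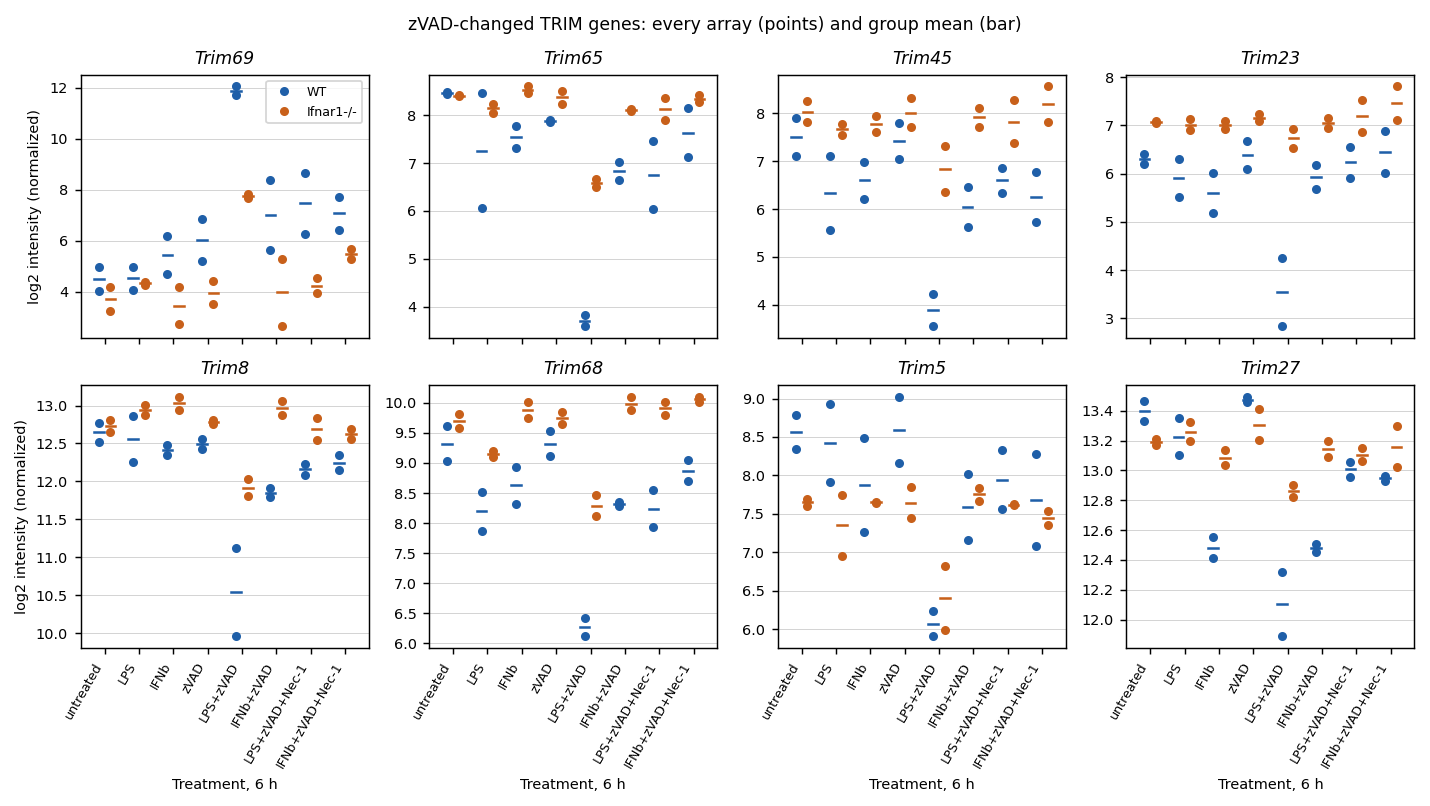
Normalized log2 intensity (vertical axis) of 8 zVAD-changed TRIM genes under 8 treatments for 6 h (horizontal axis); points are single arrays, 2 per group, bars are group means, and colours are the genotypes. The WT LPS+zVAD arrays of Trim69 stood at 11.72 and 12.06, and those of Trim65 at 3.60 and 3.82, where the probe was not well above background.

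In Ifnar1-/- BMDMs, LPS+zVAD against LPS called 1 TRIM gene higher, where 4.58% of all genes tested were, and 7 lower, where 3.67% were. The gene that rose was Trim69. Trim21 went from 12.90 and 12.86 with LPS to 10.50 and 10.52 with LPS+zVAD (-2.37 ± 0.29, adjusted p = 6.27e-05), while in WT it stood at 14.95 and 14.25 with LPS and at 14.56 and 14.90 with LPS+zVAD. The Ifnar1-/- LPS+zVAD arrays were below even the untreated arrays of that genotype, at 11.01 and 11.21. Trim30a fell by 1.04, Trim34a by 1.08 and Trim14 by 1.03 on the log2 scale, which put Trim14 at 9.92 and 10.35. Trim8 and Trim44 gave -1.02 and -0.68, and Trim29 was at least 2.53-fold lower. Of these 8 calls only that of Trim21 held when each of the 4 arrays was left out in turn, and with the slide as a block 15 TRIM genes were called in place of 8.

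The difference between the genotypes' responses to LPS+zVAD over LPS was called for 3 TRIM genes, where 3.60% of all genes tested were. These were Trim21 (-2.49 ± 0.42, adjusted p = 0.00309), Trim30a (-1.39 ± 0.34, adjusted p = 0.0278) and Trim32 (1.30 ± 0.34, adjusted p = 0.0407). The calls of Trim30a and Trim32 were each lost when any of 6 single arrays was left out, and all 3 in a fit of only the compared groups (adjusted p = 0.109 to 0.261). Trim65 was at 6.49 and 6.68 with LPS+zVAD in Ifnar1-/- cells and above background on both arrays, against not well above background in WT, but the difference of its changes was not called.

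With Nec-1 added to LPS+zVAD in Ifnar1-/- cells, 11 TRIM genes were higher, where 11.1% of all genes tested were, and 3 lower, where 7.65% were; this rests on the pair of arrays that stood apart. Trim30c fell by 3.73 ± 0.59, from 9.52 and 9.54 to 6.38 and 5.21 with 1 of the 2 arrays above background (-3.15 without Nec-1 replicate 2), Trim13 fell by 2.28, and Trim69 was at least 7.72-fold lower. Trim14 rose by 1.60 and Trim34a by 1.45, with Trim14 at 11.33 and 12.14. Trim2 rose by 1.75 ± 0.53 with replicates at 7.61 and 9.96. The other 8 (Trim68, Trim65, Trim29, Trim47, Trim21, Trim62, Trim25 and Trim8) rose by 0.77 to 1.62. When some single array was left out, 10 of these 14 calls were lost, and those of Trim14, Trim30c, Trim34a and Trim68 were not. Without Nec-1 replicate 2, Trim2 gave 0.57, Trim47 0.51 and Trim13 -1.52, none of them called. A fit of only the compared groups called 0 of the 14 (adjusted p = 0.134 to 0.374). Nec-1 added to IFNβ+zVAD called 1 TRIM gene in these cells, Trim25 (1.06 ± 0.24, adjusted p = 0.0287, on the probe with the repeat; lost when any 1 of the 4 arrays was left out), where 1.58% of all genes tested were called.

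**Figure D5:**
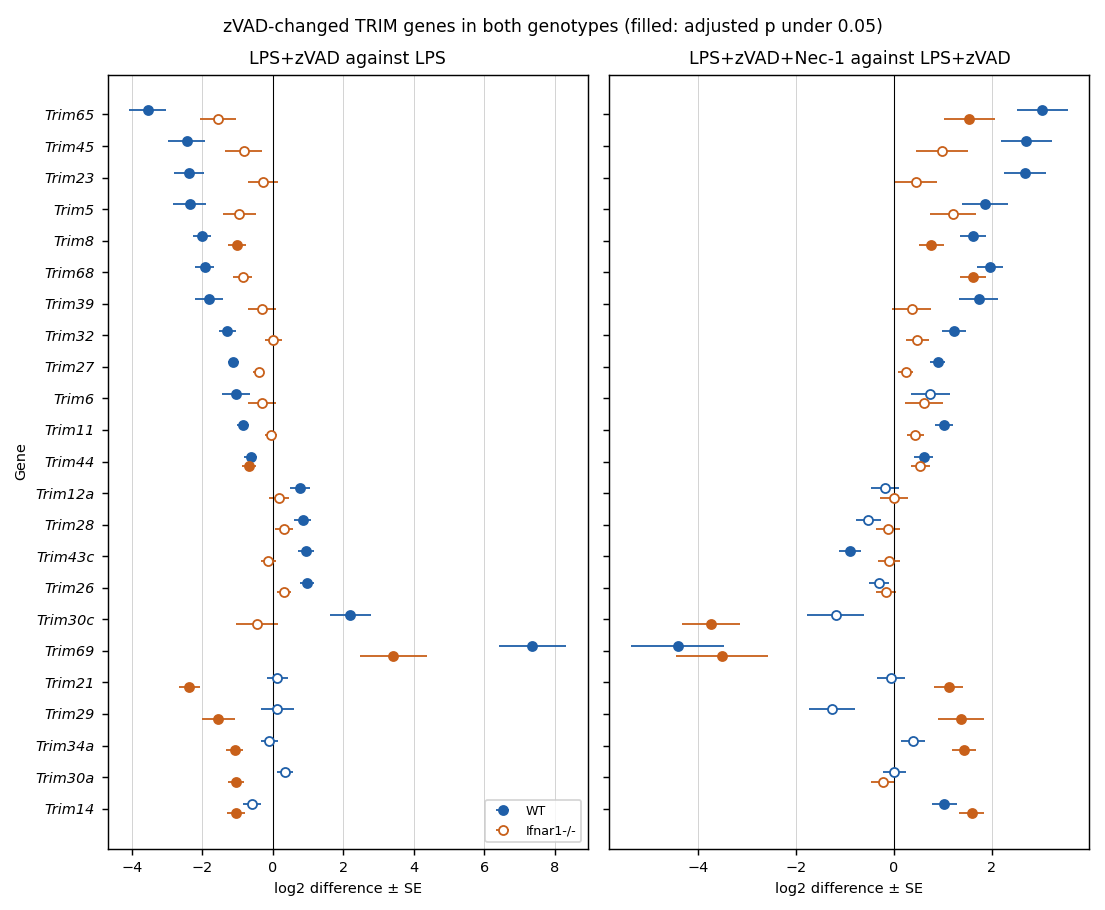
Log2 difference ± SE of each zVAD-changed TRIM gene (vertical axis) for LPS+zVAD against LPS and for LPS+zVAD+Nec-1 against LPS+zVAD (panels), for WT and Ifnar1-/- BMDMs (colours); filled points have an adjusted p under 0.05. Trim69 lies farthest right in the first panel (7.36 in WT; the Ifnar1-/- LPS arrays were not well above background) and is lower with Nec-1 in both genotypes.

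The stable members were Trim35, a ligase reported to act on IRF7, and Trim7, a glycogenin-interacting ligase. Group means of Trim35 spanned 0.54 in WT and 0.33 in Ifnar1-/- arrays, and single arrays ran from 13.87 to 15.06 in WT and from 14.13 to 14.62 in Ifnar1-/-. Those of Trim7 spanned 0.39 and 0.59. Trim17 had no call but lay just outside the limit, with a span of 1.12 in Ifnar1-/- arrays, and Trim43c spanned 0.94 in WT but was called. In no class were 7 members without a call (Trim9, Trim17, Trim33, Trim38, Trim41, Trim43b and Trim46) and 9 that were called in other comparisons (Trim2, Trim3, Trim16, Trim24, Trim36, Trim37, Trim47, Trim59 and Trim62).

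By role, the 4 NHL-repeat genes were all tested: with IFNβ in WT 1 rose and 2 fell, where 13.7% and 21.6% of all genes tested did. Of 4 genes listed here for a COS box (Trim9, Trim36, Trim46 and Trim67), 3 were tested. Of these 1, Trim36, rose with LPS in WT, where 16.3% of all genes tested did. Of the 4 TIF1 genes 3 were tested, with 2 (Trim24 and Trim28) lower with IFNβ in WT, where 21.6% of all genes tested were. Both calls were lost when some single array was left out, and the dim probe of Trim28 went the other way. The 4 members of striated muscle, Trim54, Trim55, Trim63 and Trim72, all failed the filter. The other 14 that failed were Trim10, Trim15, Trim30e-ps1, Trim31, Trim40, Trim42, Trim50, Trim52, Trim58, Trim60, Trim61, Trim66, Trim67 and Trim75. Trim30e-ps1, a pseudogene beside Trim30d, was above background on both arrays in 6 groups, all WT, with 5.18 and 4.55 under LPS and 3.81 and 3.13 untreated, and on 0 Ifnar1-/- arrays. A further 9 (Trim31, Trim42, Trim50, Trim54, Trim55, Trim58, Trim60, Trim61 and Trim75) were above background on both arrays in 1 to 3 groups; their levels there ran from 3.17 to 5.47, except for Trim54 with IFNβ in Ifnar1-/- cells (7.03 and 5.11).

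Of 16 classical interferon-stimulated genes, all measured, 14 (87.5%) rose with IFNβ in WT, where 13.7% of all genes tested did. With LPS 13 (81.2%) rose in WT, where 16.3% of all genes tested did. In Ifnar1-/- cells 7 (43.8%) rose and 2 (12.5%) fell with LPS, where 10.9% and 13.9% of all genes tested did. Of 25 substrates and partners of TRIM proteins, 24 were measured, and 10 (41.7%) rose and 3 (12.5%) fell with IFNβ in WT, where 13.7% and 21.6% of all genes tested did. They included the sensor genes Ddx58 (3.10), the partner of Trim25, and Mb21d1 (2.13), which encodes cGAS, while the adaptor Mavs fell by 1.85. With LPS+zVAD over LPS in WT, 6 partners rose and 6 fell (25% each, where 12.9% and 21.8% of all genes tested did), with Sqstm1, the autophagy receptor p62, at 2.56 and Irf3 at -1.84. Of 6 TRIM proteins whose symbols do not begin with Trim, 4 were measured. With IFNβ in WT 2 of the 4 rose, Pml by 2.92 ± 0.31 and Mid1 by 5.97 ± 0.62, where 13.7% of all genes tested did. With LPS in WT 3 of the 4 rose, where 16.3% of all genes tested did. Among these Mefv, which encodes pyrin, rose by 3.80 ± 1.41 (adjusted p = 0.037). Mefv was not called with IFNβ, and Cmya5 was called in neither comparison. Pml gave -1.06 ± 0.31 (adjusted p = 0.017) with LPS in Ifnar1-/- cells.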

How the data were processed

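RNA of 32 BMDM samples was labelled with 1 dye (Cy3) and hybridized to Agilent mouse arrays, annotated to mm9. The deposited scanner files hold intensities that the authors' scanner software (Feature Extraction 11.5.1.1) had background-subtracted and detrended; an authors' table of normalized log2 values was also deposited and used only as an alternative. Here intensities were taken to log2, quantile-normalized, and probes kept if well above background on at least 50% of arrays; outlier spots were left out. Neither table gives depth, and the number of arrays limits the precision. limma 3.58.1 (R 4.3.3) fitted 16 group means with 16 residual degrees of freedom, with Benjamini-Hochberg adjustment within each comparison. The labels do not say whether replicates are separate animals or cultures, so p-values measure only the spread between these samples, which may be technical.

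Groups came from the sample titles. Replicate number equals slide, and same-numbered arrays deviated together in 28 of 28 treatment pairs of each genotype (correlations of 0.318 to 0.670 in WT and 0.169 to 0.578 in Ifnar1-/-); the fit with slide as a block was an alternative. Other alternatives were scaling to the 75th percentile, normexp with an offset of 50, other filters, the mean of a gene's probes, only the compared groups, and leaving out arrays. The genes named by rule are every interferon-induced member, the 12 zVAD-changed members with the largest change in LPS+zVAD against LPS in WT, every member that zVAD changed in Ifnar1-/- cells, the stable members, the member with the largest change of each treatment comparison, and members that failed the filter; others were named after their values were seen. Members and lists were chosen with earlier results of these data known. Probe positions are in mm9 and promoters in GRCm38.p6 (RefSeq), read with Python 3.11.15. The tests were checked on simulated data with independent arrays. That check does not cover the shared deviation of same-numbered arrays.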

Additional observations from a re-analysis of the deposited data

Results flagged for a closer look

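The change with a treatment differed between the genotypes, by the interaction test in limma with Benjamini-Hochberg adjustment over all genes, for the TRIM genes below; values are the Ifnar1-/- change minus the WT change on the log2 scale. With IFNβ, the difference was -6.58 for Trim30c, -3.19 for Trim30b, -3.04 for Trim30d, -2.84 for Trim30a, -2.69 for Trim34b, -2.52 for Trim21, -2.34 for Trim34a, -2.13 for Trim56, -1.86 for Trim12a, -1.84 for Trim26, -1.75 for Trim14 and -1.39 for Trim12c. It was 3.19 for Trim37, 2.61 for Trim16, 2.42 for Trim29, 2.02 for Trim47, 1.17 for Trim32, 1.05 for Trim28 and 0.81 for Trim27. Trim29, Trim30b and Trim30c were not well above background in both arrays of at least 1 of the groups compared. Trim37 was above background on 1 of the 2 WT IFNβ arrays. The other probe of Trim56 was not called with IFNβ in WT. With the mean of its probes the LPS difference of Trim56, listed next, was -0.31 and not called. With LPS it was -1.83 for Trim14, -1.66 for Trim34a, -1.19 for Trim26 and -1.17 for Trim56. With zVAD added to LPS it was -2.49 for Trim21, -1.39 for Trim30a and 1.30 for Trim32.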

How the results depend on the processing

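Of 2571 values of named TRIM genes under the alternatives, 2202 kept their side of the threshold. A further 333 lost the call, 33 gained one and 3 reversed direction. A change of direction was counted as a reversal only where the main value or the alternative was called. Any uncalled value that changed direction is therefore among the 2202. The reversals were of Trim28 with the mean of its probes, 1.05 with IFNβ in WT, -0.62 with LPS+zVAD over LPS in WT and -0.64 for the IFNβ difference between genotypes. The fit of only the compared groups, which has fewer arrays, called 8 TRIM genes lower with LPS in WT in place of 13, 1 higher and 2 lower with LPS+zVAD over LPS in place of 6 and 12, and 12 as zVAD-changed in place of 23. With slide as a block (the pairing by replicate number), 15 were called with LPS+zVAD over LPS in Ifnar1-/- cells in place of 8, and 11 in place of 4 for the LPS difference between genotypes, which was 7 without the Ifnar1-/- LPS+zVAD+Nec-1 pair; the block moved no other count by more than 1.5 times. Stable genes numbered 1 with the 75th percentile, 1 with the mean of probes, 7 with normexp and 8 with the authors' normalized values, in place of 2; the cause was not tested. Leaving out 1 array at a time gave 13 to 15 genes higher and 7 to 9 lower with IFNβ in WT, 11 to 14 higher and 8 to 14 lower with LPS, 3 to 6 higher and 10 to 13 lower with LPS+zVAD over LPS, 17 to 24 zVAD-changed and 1 to 3 stable. In Ifnar1-/- cells it gave 9 to 10 called with LPS and 1 to 4 with LPS+zVAD over LPS, and for the differences 15 to 19 with IFNβ and 3 to 8 with LPS. The lowest counts came without WT untreated replicate 2 for the falls with IFNβ (7) and, with WT LPS replicate 1, for the falls with LPS (8). They came without WT LPS replicate 2 or WT LPS+zVAD replicate 2 for the rises with LPS+zVAD (3). The highest LPS difference count (8) came without WT LPS replicate 2. The 75th percentile scaling moved the median of all genes with IFNβ in WT from -0.17 to -0.02, and 9 TRIM genes were then lower in place of 12. The filter asking for signal on all 32 arrays kept 32 TRIM genes and dropped 17, among them Trim2, Trim6, Trim23, Trim29, Trim30b, Trim30c, Trim34b, Trim37, Trim45, Trim65, Trim69 and Trim71, whose values could not be computed there.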
